A study of Mus musculus with 6 samples.

Results

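The genes described here encode calcineurin, the NFAT transcription factors and the Rcan regulators of calcineurin. They are *Ppp3ca*, *Ppp3cb*, *Ppp3r1*, *Nfatc1*, *Nfatc2*, *Nfatc3*, *Nfatc4*, *Nfat5*, *Rcan1* and *Rcan2*, taken by symbol from the RNA-seq count table, 10 of the 25140 genes it lists. All 10 passed the filter on low counts, which 14334 genes passed in all.

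The series compared cultured mouse fibroblasts with and without TGFβ, a cytokine under which fibroblasts take on the contractile, matrix-producing state of myofibroblasts. Both groups were C57BL/6 primary cardiac fibroblasts of the adult heart at passage 1, by the labels. The methods of the study also name cardiac fibroblasts for RNA-seq, while its results call the sequenced cells MEFs (embryonic fibroblasts). The labels describe growth in DMEM with 25 mM glucose and 10% serum, then 1% serum for 16 h from 80% confluence. The cells were then given 10 ng/ml TGFβ or vehicle for 24 h. The methods of the study instead state 1% serum from 24 h before the treatment and throughout it. There were 3 libraries per group, named here vehicle a to c and TGFβ a to c, and the labels give no genetic change in either group.

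Calcineurin is a phosphatase switched on by calcium and calmodulin, made of a catalytic A subunit (*Ppp3ca*, *Ppp3cb* or *Ppp3cc*) and a regulatory B subunit (*Ppp3r1*). It removes phosphates from NFATc1 to NFATc4, which then enter the nucleus and bind DNA at a short GGAAA core, whereas kinases send them back to the cytoplasm. NFAT5 shares the DNA-binding domain but answers to osmotic stress and has no calcineurin docking site, and the Rcan proteins bind calcineurin and restrain it. In fibroblasts of the heart this pathway is known for its part in the myofibroblast program. All values below are transcript levels, which do not report phosphatase activity or where NFAT sits in the cell.

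Library totals lay between 27851677 and 31072338 counts, and replicate libraries differed by more than counting noise. Of the 9 fibroblast markers all were above 1 CPM (counts of reads scaled to library size, with edgeR's TMM factors) and 7 fell with TGFβ. Their summed level ran from 53050 to 62906 CPM with vehicle and from 49544 to 55458 CPM with TGFβ. Most of it was *Col1a1* (19991.7 CPM with vehicle and 23483.5 with TGFβ), *Col1a2* (13656.5 and 14966.8) and *Col3a1* (18279.7 and 9558.89). Endothelial markers summed to 446 to 692 CPM with vehicle and 409 to 566 CPM with TGFβ, and for 0 of 7 did edgeR's adjusted p pass 0.05 (0 at an unadjusted p of 0.05, 0 by DESeq2 and 0 by limma-voom). Those of leukocytes summed to 37.1 to 54.1 CPM over all 6 libraries, and those of mesothelium to 14.8 to 62.2 CPM, and edgeR called 0 of 5 and 0 of 4 of them (0 and 1 at an unadjusted p of 0.05, 0 and 0 by DESeq2 and by limma-voom). The 6 cardiomyocyte markers summed to 38.5 to 59.5 CPM with vehicle and 27.3 to 40.3 CPM with TGFβ, nearly all of it *Tnnt2* (26.6 to 58.3 CPM over the 6 libraries), while *Myh6*, *Actc1*, *Ryr2*, *Tnni3* and *Pln* were below 1 CPM. Of the 2 tested edgeR called 0 (1 at an unadjusted p of 0.05, 1 by DESeq2 and 0 by limma-voom). Smooth muscle markers summed to 130.1 to 148 CPM with vehicle and 164 to 225 CPM with TGFβ (2 of 5 higher). Pericyte markers summed to 30.4 to 46.6 CPM and 52.5 to 93.5 CPM in the same order (1 of 4 higher). The higher ones were *Smtn* (91.0 to 111 CPM) and *Cnn1* (10.6 to 38.7 CPM) for smooth muscle, and *Cspg4* (19.5 to 53.3 CPM) for pericytes. *Myh11* of smooth muscle went from 27.8 to 23.3 CPM and *Rgs5* of pericytes from 13.6 to 15.1 CPM, neither being called. Libraries at the same place in the table (a with a, b with b, c with c) deviated together from their group means. Their Pearson r across genes, which are not independent replicates, was 0.372, 0.401 and 0.445, and it was below 0 for every other pairing. Deviations from a group mean sum to 0, so a positive r at the same place draws the other pairings below 0. Those add no separate evidence for pairing by place in the table. With that place as a block in edgeR, a choice added after the data were seen, 1 endothelial marker was higher and 4 were lower, 4 smooth muscle markers were higher and 1 lower, 1 mesothelial marker was higher and 1 lower, 1 cardiomyocyte marker was lower and, of the fibroblast markers, 2 were higher and 7 lower. In such bulk cultures fewer cells of a type and less RNA per cell cannot be told apart, and the part of these cell types in the results below was not tested.

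The largest response among the 10 genes was that of *Rcan2*, so the sequences before the starts of the Rcan pair are shown first. Each line gives 250 bases before to 50 after a start of the RefSeq annotation on build GRCm38.p6, read 5′ to 3′ on the gene's strand, with the NFAT core GGAAA or its reverse complement TTTCC in capitals.
Rcan1 start 1, chr16:92466120-92466419, minus strand: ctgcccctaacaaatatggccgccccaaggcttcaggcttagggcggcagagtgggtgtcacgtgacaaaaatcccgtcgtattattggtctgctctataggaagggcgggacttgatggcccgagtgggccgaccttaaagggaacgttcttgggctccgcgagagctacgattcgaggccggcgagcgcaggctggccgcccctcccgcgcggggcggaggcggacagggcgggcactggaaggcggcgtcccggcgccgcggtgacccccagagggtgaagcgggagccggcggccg
Rcan1 start 2, chr16:92400029-92400328, minus strand: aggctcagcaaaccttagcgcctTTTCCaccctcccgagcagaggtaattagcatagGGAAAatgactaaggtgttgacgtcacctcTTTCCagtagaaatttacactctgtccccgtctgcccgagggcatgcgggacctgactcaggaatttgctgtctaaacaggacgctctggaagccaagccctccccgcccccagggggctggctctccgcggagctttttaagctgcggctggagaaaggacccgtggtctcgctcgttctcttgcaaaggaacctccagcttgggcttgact
Rcan2 start 1, chr17:43801102-43801401, plus strand: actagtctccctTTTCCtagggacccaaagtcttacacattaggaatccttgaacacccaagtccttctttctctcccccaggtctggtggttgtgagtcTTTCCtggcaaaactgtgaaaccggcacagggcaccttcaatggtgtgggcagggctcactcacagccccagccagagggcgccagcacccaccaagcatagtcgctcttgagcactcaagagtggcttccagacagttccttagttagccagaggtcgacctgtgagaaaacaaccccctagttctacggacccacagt
Rcan2 start 2, chr17:43801601-43801900, plus strand: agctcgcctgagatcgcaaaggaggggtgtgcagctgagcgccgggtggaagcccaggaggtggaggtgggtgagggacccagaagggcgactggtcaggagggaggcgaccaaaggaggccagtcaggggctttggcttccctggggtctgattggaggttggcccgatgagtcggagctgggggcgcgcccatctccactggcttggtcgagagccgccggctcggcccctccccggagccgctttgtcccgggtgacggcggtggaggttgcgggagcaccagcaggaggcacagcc
Rcan2 start 3, chr17:43952749-43953048, plus strand: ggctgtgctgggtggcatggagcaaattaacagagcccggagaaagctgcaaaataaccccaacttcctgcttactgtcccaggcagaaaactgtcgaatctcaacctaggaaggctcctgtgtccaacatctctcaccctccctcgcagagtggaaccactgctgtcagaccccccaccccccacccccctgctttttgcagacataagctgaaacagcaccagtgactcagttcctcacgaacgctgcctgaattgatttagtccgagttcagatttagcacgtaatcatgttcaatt

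The downstream start of *Rcan1* lay 66.1 kb beyond the upstream one and carried 3 NFAT cores, at -227, -193 and -163 bases from the start, while the upstream start carried 0. *Rcan1* is known for an internal promoter that calcineurin and NFAT drive, which gives a short isoform. The count table has 1 row for *Rcan1*, so transcripts from its starts were not separated. In *Rcan2* the first start carried 2 cores and the other RefSeq starts, 499 bases and 152 kb further on, carried 0. The GENCODE M21 annotation lists 5 starts of coding transcripts for *Rcan1* and 7 for *Rcan2*. Any starts outside the windows shown were not examined. The CpG count was 33 at the upstream and 14 at the downstream start of *Rcan1*, and 5, 20 and 7 at the starts of *Rcan2*, against a median of 7 over all windows.

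These letters are common. GGAAA on either strand was found in 61.3% of the 32851 mouse windows of this length, and the SMAD box CAGAC or its reverse GTCTG, letters that the SMAD proteins of TGFβ signalling bind, in 49.6%. The motifs can share an end base, which the matches in these 5 windows did not. The SMAD box occurred 1 time at each *Rcan1* start and 2, 1 and 2 times at the *Rcan2* starts in order. Windows were found for 8 of the 10 genes. The NFAT core occurred 3 times before *Nfatc4*, 4 times at *Ppp3cb*, 2 times before *Nfat5* and 0 times at *Ppp3r1*. In the 2 windows of *Nfatc2* it occurred 3 and 1 times, and in the 2 of *Nfatc3* 1 and 0 times. A match says only that the letters are present.

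**Figure D1:**
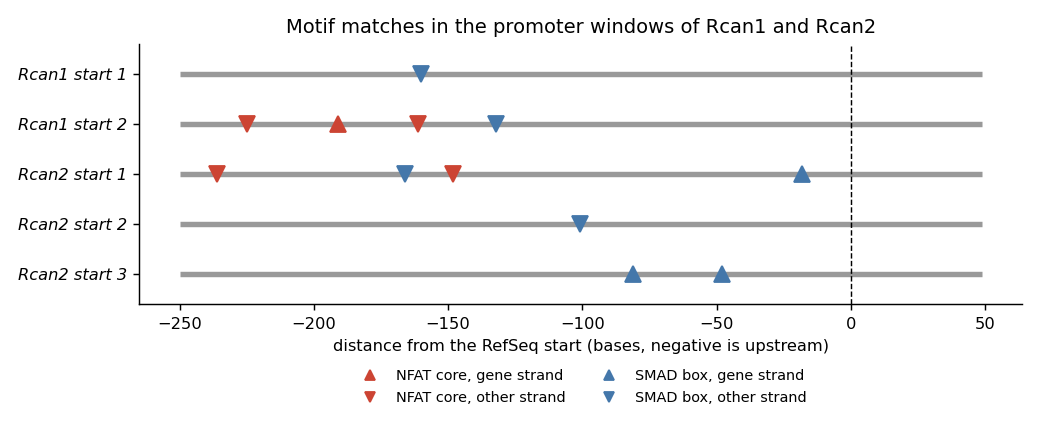
Position in bases from each RefSeq start (x axis, 0 is the start) of the GGAAA core and the CAGAC box, on either strand, in the 5 windows of *Rcan1* and *Rcan2* (1 row per window). The 3 GGAAA matches of *Rcan1* sit before its downstream start, and the 2 of *Rcan2* before its first start.

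*Rcan2* fell with TGFβ, and *Rcan1* did not pass the threshold with group as the sole term. *Rcan2* (ENSMUSG00000039601, plus strand of chromosome 17, 43801351 to 44039516 in GRCm38, GENCODE M21), a calcineurin inhibitor known to be induced by thyroid hormone, stood at 51.2, 44.7 and 56.6 CPM in vehicle a, b and c. It stood at 13.5, 14.0 and 13.1 CPM in TGFβ a, b and c. Every TGFβ library lay far below every vehicle library, and the TGFβ libraries were close together. The mean went from 50.8 ± 5.98 CPM (SD, n = 3) to 13.5 ± 0.481 CPM (SD, n = 3), a 3.76-fold lower level. On the log2 scale TGFβ over vehicle gave -1.91 (95% interval -2.12 to -1.70, standard error 0.09). The adjusted p was 8.73e-06, by the quasi-likelihood test of edgeR and Benjamini-Hochberg over the 14334 genes. Only 0.830% of the genes tested had a lower log2 fold change than *Rcan2*. The value stayed between -1.99 and -1.83 when each library was left out.

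*Rcan1* (ENSMUSG00000022951, minus strand of chromosome 16, 92391953 to 92470867), the family member known to be raised by calcineurin itself, was counted at 16.3, 15.2 and 14.8 CPM with vehicle and at 15.7, 18.8 and 19.3 CPM with TGFβ. TGFβ a lay within the vehicle range, and TGFβ b and c lay above it. The log2 fold change of *Rcan1* was 0.22 (standard error 0.09, 95% interval 0.01 to 0.43), with an adjusted p of 0.0864 by edgeR. Without TGFβ a the log2 fold change of *Rcan1* was 0.30 and its adjusted p 0.0189 by edgeR, so its side of the threshold depended on that library. With table order as a block its adjusted p was 0.0366 by edgeR at the same log2 fold change of 0.22. Its side of the threshold thus also depended on that block, for which the labels give no pairing. The intervals given here are for single genes and are not adjusted for the number of genes.

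The order of the Rcan pair turned over. Per kilobase of the longest transcript, *Rcan2* made up 68.8, 67.3 and 72.9% of the summed *Rcan1* and *Rcan2* level in the vehicle libraries. It made up 37.5, 34.4 and 32.2% in the TGFβ libraries. The groups were far apart, *Rcan2* being the larger part in every vehicle library and the smaller part in every TGFβ library. The log2 ratio of *Rcan1* over *Rcan2*, on this scale, went from -1.20 ± 0.20 (SD, n = 3) to 0.91 ± 0.17 (SD, n = 3), a difference of 2.12. The two-sided exact permutation test gave p = 0.1, the smallest that 3 libraries against 3 allow (0.186 after Benjamini-Hochberg adjustment over the 13 quantities compared). The summed level of the pair went from 22.0 ± 1.76 to 11.8 ± 0.851 CPM per kilobase (SD, n = 3 each), and the highest TGFβ library was below the lowest vehicle library.

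**Figure D2:**
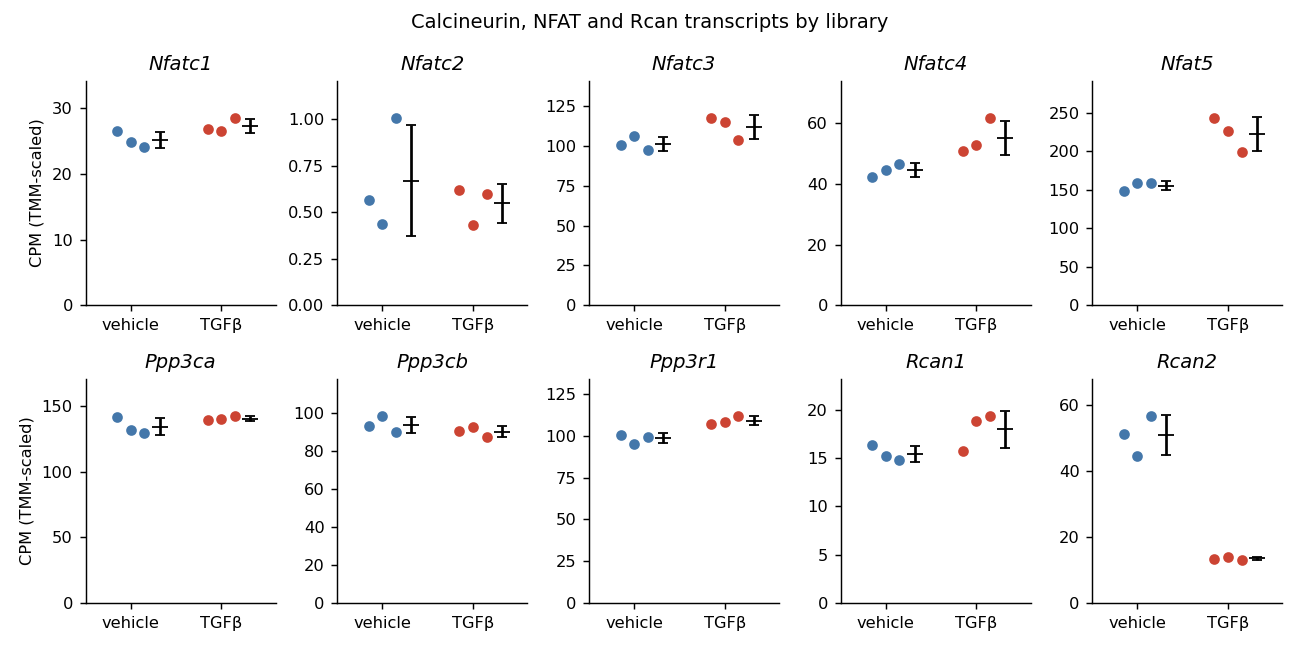
Level in CPM (y axis, from 0, a scale of its own for each gene) of the 10 genes in the 3 vehicle and 3 TGFβ libraries, 1 point per library, with the mean and SD as bars beside the points. *Rcan2* runs from 44.7 to 56.6 CPM with vehicle and from 13.1 to 14.0 CPM with TGFβ, and *Nfat5* from 149 to 159 CPM and from 199 to 243 CPM.

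Among the NFAT genes, *Nfat5* and *Nfatc4* rose, and *Nfatc1*, *Nfatc2* and *Nfatc3* did not pass the threshold. *Nfat5* (ENSMUSG00000003847, plus strand of chromosome 8, 107293470 to 107379517), the tonicity-responsive member, was at 149, 159 and 158 CPM with vehicle. It was at 243, 226 and 199 CPM with TGFβ. All TGFβ libraries of *Nfat5* were above all vehicle libraries, with a wider spread among them. Its mean rose 1.44-fold from 155 ± 5.72 to 223 ± 22.0 CPM (SD, n = 3 each). In log2 this was 0.52 (95% interval 0.35 to 0.69, standard error 0.07) with an adjusted p of 0.00106 by edgeR.

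*Nfatc4* (ENSMUSG00000023411, plus strand of chromosome 14, 55823144 to 55833943), known for its part in calcineurin-driven growth of the heart, was at 42.2, 44.6 and 46.7 CPM with vehicle and 50.8, 52.8 and 61.6 CPM with TGFβ. The groups did not overlap, and TGFβ c stood highest. The mean of *Nfatc4* rose 1.24-fold from 44.5 ± 2.23 to 55.1 ± 5.72 CPM (SD, n = 3 each). Its log2 fold change was 0.31 (95% interval 0.13 to 0.49, standard error 0.08) with an adjusted p of 0.0147 by edgeR. Without vehicle a the adjusted p of *Nfatc4* was 0.0505 by edgeR at a log2 fold change of 0.27.

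*Nfatc3* (ENSMUSG00000031902, plus strand of chromosome 8, 106058840 to 106130537), a broadly expressed NFATc factor, was at 101, 106 and 97.4 CPM with vehicle and 117, 115 and 103 CPM with TGFβ. TGFβ c lay within the vehicle range. The log2 fold change of *Nfatc3* was 0.14 (95% interval 0.01 to 0.28, adjusted p 0.0873 by edgeR), and without TGFβ c it was 0.19 with an adjusted p of 0.0202 by edgeR. With table order as a block the adjusted p of *Nfatc3* was 0.0105 by edgeR at 0.14. Exons of *Esrp2*, a splicing factor gene on the opposite strand that rose from 3.00 to 10.4 CPM, overlap those of *Nfatc3*. Its counts over all libraries came to 6.17% of those of *Nfatc3*. The mean of *Nfatc3* went from 101 to 112 CPM, so that share was larger with TGFβ than with vehicle. The strand setting of the counting is not given in the sources used here, so the level and the change of *Nfatc3* carry that uncertainty.

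*Nfatc1*, the factor known from heart valve and osteoclast development, was at 26.5, 24.8 and 24.0 CPM with vehicle and 26.8, 26.6 and 28.4 CPM with TGFβ. Its groups lay just apart, vehicle a being close to the TGFβ libraries. The log2 fold change of *Nfatc1* was 0.12 (95% interval -0.01 to 0.25, adjusted p 0.133 by edgeR). *Nfatc2*, the main NFAT of resting T cells, was counted 18, 13 and 30 times in the vehicle libraries and 17, 12 and 17 times in the TGFβ libraries. At 0.670 ± 0.298 and 0.549 ± 0.104 CPM (SD, n = 3 each) its interval, -1.10 to 0.54 on the log2 scale, was wide enough that a difference of the size of that of *Nfat5* or *Nfatc4* was not detectable. The fitted log2 fold change of *Nfatc2* was -0.28, and 0.12 without vehicle c.

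Of the calcineurin genes, *Ppp3r1* rose and the catalytic genes did not pass the threshold. *Ppp3ca*, the catalytic Aα subunit, was at 142, 132 and 129.6 CPM with vehicle and 139, 140.1 and 142 CPM with TGFβ, the latter within the vehicle range apart from TGFβ c, which lay just above it. Its log2 fold change was 0.06 (95% interval -0.04 to 0.17, adjusted p 0.296 by edgeR). *Ppp3cb*, the catalytic Aβ subunit, was at 93.1, 98.5 and 90.2 CPM with vehicle and 90.6, 92.8 and 87.3 CPM with TGFβ. The groups overlapped, with a log2 fold change of -0.06 (95% interval -0.17 to 0.05, adjusted p 0.359 by edgeR). For *Ppp3ca* and *Ppp3cb* the intervals leave out a change as large as the fitted one of *Nfatc4*.

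*Ppp3r1* (ENSMUSG00000033953, plus strand of chromosome 11, 17159263 to 17200375), the calcium-binding regulatory B subunit, was at 101, 95.2 and 99.6 CPM with vehicle. It was at 107, 109 and 112 CPM with TGFβ, above vehicle in every library but by little. The mean of *Ppp3r1* rose 1.11-fold from 98.6 ± 2.99 to 109 ± 2.45 CPM (SD, n = 3 each). Its log2 fold change was 0.15 (95% interval 0.05 to 0.24) with an adjusted p of 0.0209 by edgeR. The adjusted p was 0.0888 without vehicle b, 0.0610 without TGFβ b and 0.0630 without TGFβ c by edgeR, at log2 fold changes of 0.12, 0.15 and 0.12. Of the 75-base windows of *Ppp3r1*, 13.9% also occur in other genes, mainly *Wdr92*, which overlaps it on the same strand. *Wdr92* rose from 12.4 to 14.4 CPM and had counts equal to 12.9% of those of *Ppp3r1*. How reads that both genes share were counted is not given in the sources used here. The level and the change of *Ppp3r1* carry that uncertainty, whose size these percentages do not measure.

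In all, 4 of the 10 genes passed the threshold, where 40.7% of all genes tested did. With TGFβ 3 were higher, where 20.5% of all genes were, and 1 was lower, where 20.1% were. The groups did not overlap for 5 of the 10, where 53.3% of all genes were so. With table order as a block 6 passed, where 52.3% of all genes did, 5 of them higher, where 26% were, and 1 lower, where 26.3% were. These shares rest on 10 genes. The shares called in either direction and the share without overlap are near those of all genes. The shares by direction are farther from them, most so for the 5 higher under the block. On so few genes the number called, in either or in 1 direction, is not a result about this family. The median log2 fold change was 0.13 over the 10 genes and -0.0013 over all genes tested.

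**Figure D3:**
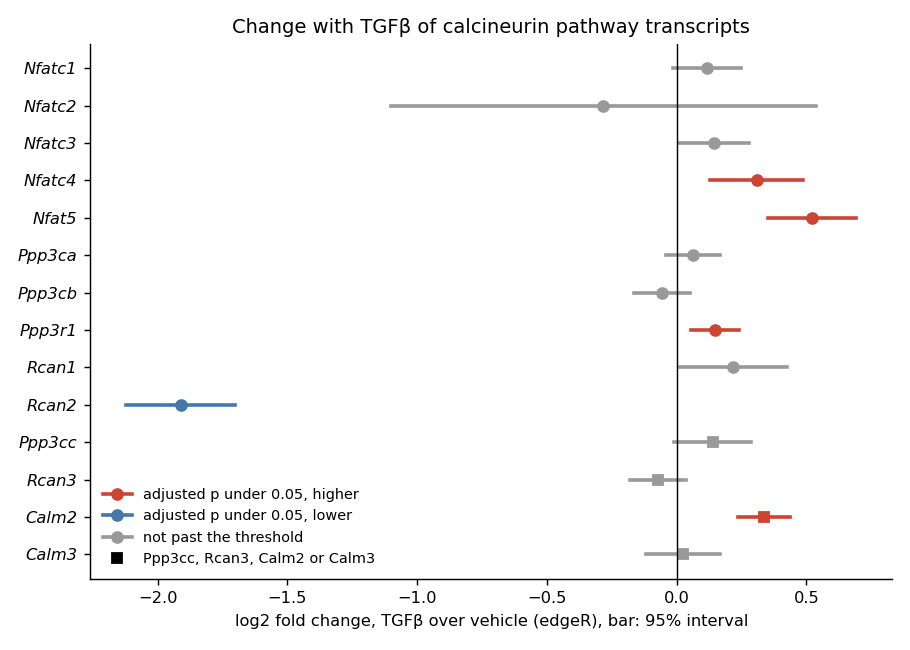
Log2 fold change of TGFβ over vehicle (x axis, 0 is no difference) of the 10 genes (circles) and of *Ppp3cc*, *Rcan3*, *Calm2* and *Calm3* (squares), with 95% intervals as bars, from edgeR. *Rcan2* stands alone at -1.91, while the other 9 circles lie between -0.28 and 0.52.

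Levels of different genes were compared as CPM per kilobase of the longest transcript. With vehicle the order was *Ppp3r1* (34.5 ± 1.04), *Ppp3ca* (28.3 ± 1.37), *Ppp3cb* (24.5 ± 1.10), *Nfatc3* (16.9 ± 0.724), *Rcan2* (15.3 ± 1.81), *Nfatc4* (11.8 ± 0.591), *Nfat5* (11.5 ± 0.426), *Rcan1* (6.64 ± 0.345), *Nfatc1* (5.24 ± 0.257) and *Nfatc2* (0.0981 ± 0.0436), each in CPM per kilobase (SD, n = 3). *Nfatc3* and *Rcan2*, and *Nfatc4* and *Nfat5*, overlapped between libraries, and the other neighbours did not. With TGFβ *Rcan2* was down at 4.08 ± 0.145 CPM per kilobase, below *Rcan1* (7.72 ± 0.839) and *Nfatc1* (5.68 ± 0.215), and *Nfat5* (16.6 ± 1.63) stood between *Nfatc3* (18.7 ± 1.24) and *Nfatc4* (14.6 ± 1.52) and overlapped both. The calcineurin genes kept the top of this order at 38.2 ± 0.857 for *Ppp3r1*, 29.5 ± 0.351 for *Ppp3ca* and 23.6 ± 0.724 for *Ppp3cb*, and *Nfatc2* its end at 0.0804 ± 0.0153 CPM per kilobase. The union of all exons as the length was a choice added after the data were seen. With it *Rcan2* had rank 3 with vehicle at 11.6 CPM per kilobase, above *Ppp3cb* at 10.7, and *Nfat5* had rank 3 with TGFβ at 12.1. The middle ranks, the levels and the shares and ratios built on them thus rest on the length used.

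The makeup of the NFATc group did not separate vehicle from TGFβ. On the same scale *Nfatc3* made up 49.7 ± 1.43% and 47.9 ± 3.75% of the summed NFATc1 to NFATc4 transcript with vehicle and TGFβ, *Nfatc4* 34.6 ± 1.76% and 37.3 ± 3.39%, *Nfatc1* 15.4 ± 0.887% and 14.5 ± 0.370%, and *Nfatc2* 0.289 ± 0.131% and 0.206 ± 0.0385% (SD, n = 3 each). The groups overlapped for each of these shares. The shares rest on the length used. With the union of all exons *Nfatc3* and *Nfatc4* stood at 8.65 and 7.66 CPM per kilobase with vehicle. With TGFβ they stood at 9.55 and 9.48 on that length. The lower *Nfatc3* share rested on TGFβ c, without which the difference turned from -1.81 to 0.331 percentage points. Without that library the *Nfatc4* difference went from 2.73 to 0.802 points, and the *Nfatc1* difference went from -0.832 to -0.320 without vehicle a. The *Nfatc2* difference of -0.0831 points came to -0.0097 without vehicle c and -0.135 without vehicle b. The summed NFATc level went from 34.1 ± 0.615 to 39.1 ± 0.489 CPM per kilobase (SD, n = 3 each), higher in all TGFβ libraries.

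The catalytic subunits summed to 57.5 ± 1.81 CPM per kilobase with vehicle and 58.3 ± 0.446 with TGFβ (SD, n = 3 each), and the groups overlapped. *Ppp3ca* held 49.1 ± 1.54% and 50.6 ± 0.688% of that sum, *Ppp3cb* 42.6 ± 1.42% and 40.4 ± 1.09%, and *Ppp3cc* 8.29 ± 0.196% and 8.99 ± 0.411%. Only for *Ppp3ca* did the groups overlap. For *Ppp3cb* they lay barely apart, the lowest vehicle share being 41.28% and the highest TGFβ share 41.19%. The two-sided exact permutation test gave p = 0.1 for *Ppp3cb* and for *Ppp3cc*, the smallest possible here. After Benjamini-Hochberg adjustment over the 13 quantities it was 0.186. The difference in the *Ppp3ca* share, 1.53 percentage points, was 2.30 without vehicle a and 0.760 without vehicle b, that of *Ppp3cb*, -2.24, was -1.49 without vehicle b, and that of *Ppp3cc*, 0.709, was 0.471 without TGFβ c. Set against this sum, the log2 ratio of *Rcan1* plus *Rcan2* over catalytic transcript was -1.39 ± 0.15 with vehicle and -2.31 ± 0.10 with TGFβ (SD, n = 3 each). The difference of -0.92 stayed between -0.99 and -0.84 when each library was left out. With the union of all exons as the length, vehicle levels were 13.5 CPM per kilobase for *Ppp3ca*, 10.7 for *Ppp3cb* and 11.6 for *Rcan2*. Per longest transcript they were 28.3, 24.5 and 15.3, so the catalytic shares and the value of this ratio rest on the length used. *Rcan3*, at 8.69 and 8.27 CPM per kilobase with vehicle and TGFβ, was not part of this ratio. Its TGFβ mean was above those of *Rcan1* (7.72) and *Rcan2* (4.08), so the ratio does not describe all Rcan transcript, for which the fall would be smaller.

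**Figure D4:**
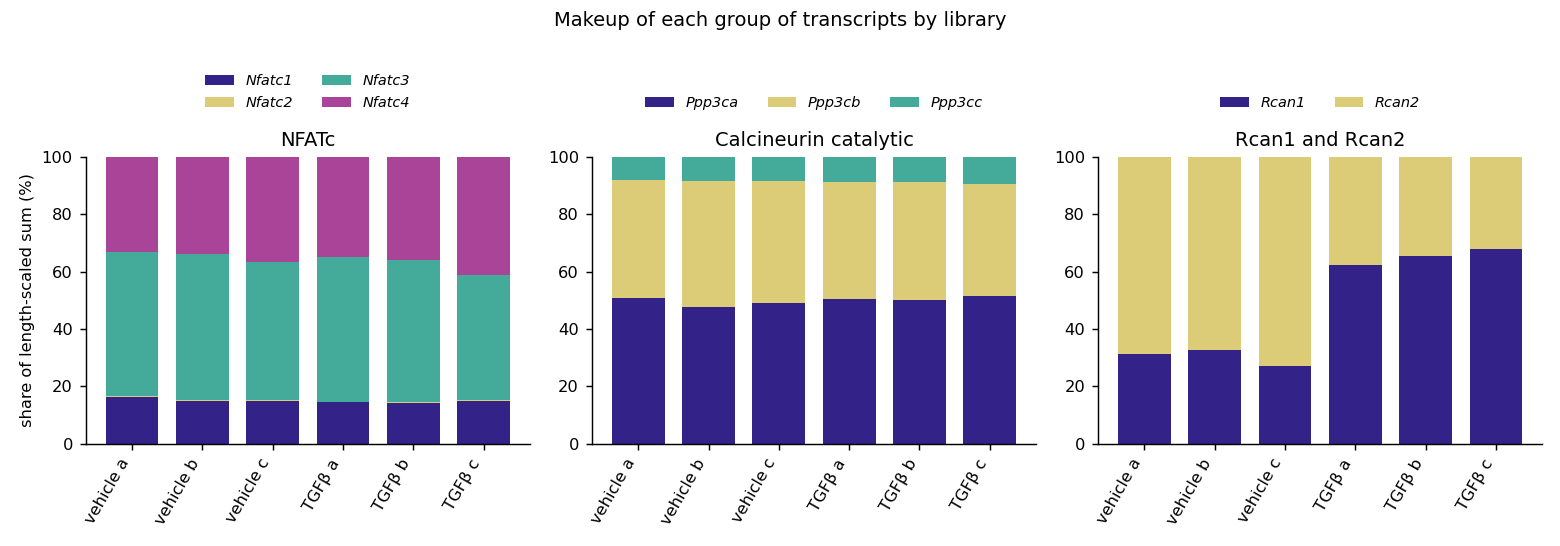
Share in percent (y axis, stacked bars) of each gene in the length-scaled sum of its group, for the NFATc factors, the catalytic subunits and the Rcan pair, in each of the 6 libraries (x axis). Per kilobase of the longest transcript the Rcan pair changes its order, *Rcan2* going from 67.3 to 72.9% with vehicle to 32.2 to 37.5% with TGFβ. The other groups keep theirs on this scale.

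The remaining genes of these families gave no call. *Ppp3cc*, a catalytic subunit best known from testis, was at 11.9 ± 0.205 and 13.1 ± 0.586 CPM (SD, n = 3 each, log2 fold change 0.14, adjusted p 0.119 by edgeR). *Rcan3*, the remaining Rcan gene, was at 44.4 ± 1.76 and 42.3 ± 1.17 CPM (SD, n = 3 each, log2 fold change -0.07, adjusted p 0.251 by edgeR). *Ppp3r2*, the testis form of the B subunit, had 2 counts over all libraries and was not tested.

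Upstream of calcineurin, *Calm2*, which encodes its activator calmodulin, rose from 248 ± 9.83 to 313 ± 0.921 CPM (SD, n = 3 each, log2 fold change 0.34, adjusted p 0.000705 by edgeR). *Calm3*, which also encodes calmodulin, stood at 403 ± 19.5 and 410.4 ± 26.4 CPM (SD, n = 3 each, log2 fold change 0.02, adjusted p 0.774 by edgeR). Of 9 genes for calcium entry through the plasma membrane, 2 were higher, 1 lower and 6 not called, with a median log2 fold change of -0.09. Over all genes tested 20.5% were higher and 20.1% lower, shares to be set beside this list and each list below. With table order as a block 5 of the 9 were called, where 52.3% of all genes were. *Stim2*, a calcium sensor of the endoplasmic reticulum, rose from 53.1 to 63.2 CPM (log2 fold change 0.25, adjusted p 0.00255 by edgeR). *Orai3*, a subunit of the store-operated channel, fell from 31.0 to 26.1 CPM (log2 fold change -0.25, adjusted p 0.00361 by edgeR). *Trpc6*, a channel gene that NFAT is known to drive, was at 1.09 and 1.87 CPM (log2 fold change 0.77, adjusted p 0.0278 by edgeR), and this call was lost without vehicle b, vehicle c or TGFβ c, the value then lying between 0.58 and 0.76.

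Of 8 genes for proteins that bind calcineurin or its drug complexes, 7 were tested, 3 being higher, 2 lower and 2 not called, with a median log2 fold change of 0.14. *Akap5*, a scaffold that anchors calcineurin near channels, stood at 1.51, 0.438 and 1.17 CPM with vehicle. It stood at 11.0, 5.62 and 4.81 CPM with TGFβ. All TGFβ libraries were far above vehicle from a low level, the log2 fold change being 2.77 (adjusted p 0.00217 by edgeR, standard error 0.45). *Ppia*, which encodes cyclophilin A, the partner of cyclosporin, rose from 381 to 467 CPM (log2 fold change 0.30, adjusted p 0.00443 by edgeR), though 12.8% of its 75-base windows occur in other genes. *Fkbp1a*, which encodes the partner of FK506, rose from 257 to 308 CPM (log2 fold change 0.26, adjusted p 0.0116 by edgeR).

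Of 15 genes for kinases that act on NFAT, 14 were tested, 6 being higher, 3 lower and 5 not called (median log2 fold change 0.14). *Dyrk2* rose from 54.2 to 77.4 CPM (log2 fold change 0.51, adjusted p 0.000513 by edgeR). *Prkacb*, a catalytic subunit of protein kinase A, rose from 112 to 135 CPM (log2 fold change 0.27, adjusted p 0.00252 by edgeR). *Dyrk1b* fell from 22.7 to 18.8 CPM (log2 fold change -0.27, adjusted p 0.0448 by edgeR), a call lost without vehicle a or b or any one TGFβ library, with values from -0.32 to -0.21.

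Of 9 tested genes for NFAT transport and for the complex that holds NFAT in the cytoplasm, 5 were higher and the other 4 were not called. Of all genes tested 20.5% were higher and 20.1% lower, and a count on 9 genes is given as a description. The median log2 fold change of the 9 was 0.17. *Iqgap1*, a scaffold of that complex, rose from 593 to 919 CPM (log2 fold change 0.63, adjusted p 7.4e-05 by edgeR). *Lrrk2*, a kinase tied to the same complex, rose from 45.7 to 62.8 CPM (log2 fold change 0.46, adjusted p 0.000622 by edgeR). *Psmd11*, a proteasome lid subunit listed with that complex, rose from 90.8 to 120.4 CPM (log2 fold change 0.41, adjusted p 0.000154 by edgeR).

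Of 12 other calcineurin substrates 1 was higher, 3 were lower and 8 were not called (median log2 fold change 0.03). *Mef2c*, a MADS-box factor of muscle genes, fell from 17.6 to 12.6 CPM (log2 fold change -0.48, adjusted p 0.0090 by edgeR). *Crtc3*, a CREB coactivator, fell from 70.2 to 55.7 CPM (log2 fold change -0.33, adjusted p 0.00117 by edgeR). *Bad*, a gene of the BCL-2 family, fell from 33.4 to 28.4 CPM (log2 fold change -0.24, adjusted p 0.0315 by edgeR), a call lost without vehicle a or b or any one TGFβ library, with values from -0.26 to -0.19.

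Genes known as NFAT targets, which other factors can also drive, went both ways. Of 16 NFATc targets 9 were tested, 3 being higher, 1 lower and 5 not called, with a median log2 fold change of -0.02. *Trpc6*, given above with the calcium entry genes, is also in this list. *Ptgs2*, which encodes cyclooxygenase-2, was at 11.0, 6.71 and 12.3 CPM with vehicle and 67.0, 35.8 and 72.9 CPM with TGFβ. TGFβ b was the lowest of its group and vehicle b of its own, and the groups were far apart, the log2 fold change being 2.55 (adjusted p 0.000525 by edgeR, standard error 0.31). *Acp5*, an osteoclast phosphatase gene, fell from 5.72 to 3.86 CPM (log2 fold change -0.57, adjusted p 0.0228 by edgeR), a call lost without vehicle c, TGFβ a or TGFβ b, with values from -0.55 to -0.40. The count of 4 called NFATc targets went to 2 without vehicle b, TGFβ a or TGFβ c, and to 1 without vehicle c.

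Of 8 genes known as NFAT5 targets 2 were higher, 1 lower and 5 not called, with a median log2 fold change of 0.06. *Slc6a6*, the taurine transporter, rose from 205 to 314 CPM (log2 fold change 0.61, adjusted p 0.0073 by edgeR). *Hspa4l*, which encodes an osmotic stress chaperone, rose from 33.9 to 41.4 CPM (log2 fold change 0.29, adjusted p 0.0030 by edgeR). *Ccl2*, a monocyte chemokine gene, was at 282, 324 and 437 CPM with vehicle and 85.9, 86.8 and 138 CPM with TGFβ. The groups did not overlap, and its log2 fold change was -1.75 (adjusted p 0.000695 by edgeR).

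Over the 71 different pathway genes tested outside the 10, 22 were higher, 11 lower and 38 not called. The median log2 fold change of these genes was 0.06, against -0.0013 over all genes. With 33 of 71 called, beside 40.7% of all genes tested, and 40 with table order as a block, beside 52.3%, these counts are given as a description.

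**Figure D5:**
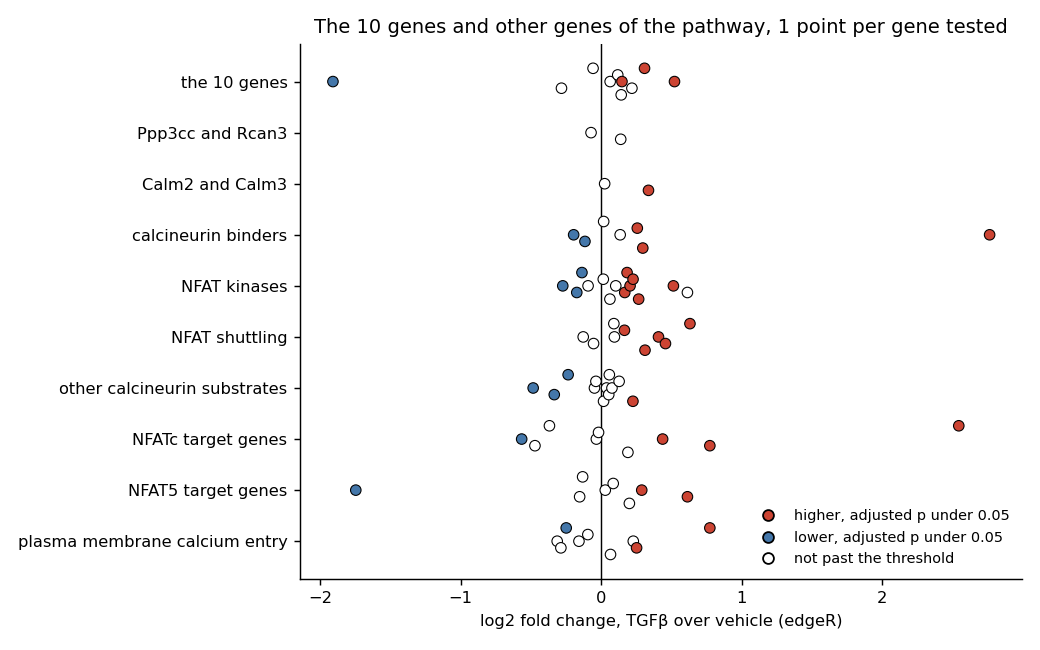
Log2 fold change of TGFβ over vehicle (x axis) of the 10 genes and the pathway genes, grouped by list (y axis). Each list has 1 point per gene tested, with genes past the threshold filled, and *Trpc6* is drawn in both lists that hold it. Among the pathway genes *Akap5* (2.77), *Ptgs2* (2.55) and *Ccl2* (-1.75) lie farthest from 0.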

How the data were processed

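Poly(A) RNA libraries (stranded, single-end reads of 75 bases) were made by the authors from 3 vehicle and 3 TGFβ cultures, given in the methods as biological replicates. The deposited table holds whole-number counts of reads per gene without normalization. The submitters' notes name mm10 and DESeq2; the aligner, counter, annotation and strand setting are not given in the sources used here. The authors' own mean, fold change and p columns were not used. Count columns carry a group but no replicate number, so libraries were lettered in table order.

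edgeR 4.0.16 (R 4.3.3) gave TMM factors, the filterByExpr filter, the quasi-likelihood test and Benjamini-Hochberg adjustment over the 14334 genes tested, with a threshold of 0.05 and groups as the sole term. CPM values are counts scaled to TMM-adjusted library size. The standard error is the log2 fold change over the square root of F, and intervals use it with the fit's degrees of freedom. Lengths and positions came from GENCODE M21 (25086 of 25140 identifiers matched), and promoter windows from RefSeq. At library totals of 27851677 to 31072338 counts, relative counting error is largest for *Nfatc2* (12 to 30 counts per library). It is smaller but not negligible for *Rcan2* with TGFβ (368 to 392 counts), *Rcan1* (430 to 551) and *Nfatc1* (717 to 842). The steps were tested on simulated counts.

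The members and gene lists were chosen with earlier results of these data known. Named are the 10 members, the remaining family genes, *Calm2*, *Calm3*, and of each pathway list up to 3 called genes with the largest change. The result for 1 further gene is not reported here. Alternatives were DESeq2 1.42.0, its size factors, upper quartile scaling, limma-voom (limma 3.58.1), no filter, 1 CPM in 3 libraries, each library left out, an adjusted p of 0.01 and a log2 fold change beyond 1, with table order as a block added after the data were seen.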

Additional observations from a re-analysis of the deposited data

How the results depend on the processing

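The sample titles number the replicates but the count columns do not, so no column could be paired from the labels. Each library correlated best with the one at its own place in the table, a hint from the data and not the design. With table order as a replicate block in edgeR, added after the data were seen, 7497 genes, 6 members, 5 higher members, 1 lower member and 40 pathway genes passed, *Rcan1* (0.22, adjusted p 0.0366) and *Nfatc3* (0.14, adjusted p 0.0105) among them, and no other member changed its side of the threshold. In simulated counts with no pairing the blocked fit made more false calls than the fit without it. The libraries here deviated together by place, which those counts did not, so the simulation cannot say whether the blocked calls are false. At an adjusted p of 0.01, 3595 genes, 2 members and 1 member with a higher level passed, against 5828, 4 and 3. With a log2 fold change beyond 1 as well, 971 genes, 1 member (*Rcan2*), 0 members with a higher level and 3 pathway genes passed, against 33 pathway genes. Leaving out each library gave 4489 to 5481 genes, 3 to 5 members, 2 to 4 higher members, 1 lower member and 25 to 31 pathway genes.

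With each library left out the log2 fold change ranged from -1.99 to -1.83 for *Rcan2*, 0.45 to 0.59 for *Nfat5*, 0.21 to 0.36 for *Nfatc4*, 0.12 to 0.16 for *Ppp3r1*, 0.16 to 0.30 for *Rcan1*, 0.11 to 0.19 for *Nfatc3* and -0.51 to 0.12 for *Nfatc2*. The adjusted p over all alternatives, limma-voom and DESeq2 included, ran from 1.03e-64 to 0.0002 for *Rcan2*, 7.95e-09 to 0.00531 for *Nfat5*, 9.93e-05 to 0.0505 for *Nfatc4*, 0.00695 to 0.0888 for *Ppp3r1*, 0.0189 to 0.241 for *Rcan1* and 0.0105 to 0.231 for *Nfatc3*. The *Rcan2* share differed by -36.4 to -33.4 percentage points. Signs turned for *Nfatc2* (0.12 without vehicle c), the *Nfatc3* share (0.331 without TGFβ c, from -3.15 without TGFβ a) and *Calm3* (-0.015 without vehicle c and -0.031 without TGFβ b, up to 0.051 without TGFβ c), none of which passed the threshold. The cause was not tested. The median log2 fold change of all genes was -0.0013 in the main fit, -0.0066 with DESeq2 size factors and -0.0225 with upper quartile scaling. Depth limits *Nfatc2*, and 3 libraries per group limit the smallest exact permutation p to 0.1.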
